A study of Drosophila melanogaster with 3 samples.

Results

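Peaks of the Runx factor Lozenge (lz) whose summits lay just downstream of a transcription start site (TSS) numbered 492 of the 8048 thresholded peaks, or 6.11%. A member was a peak whose summit lay 0 to 500 bp downstream of the nearest TSS in the direction of transcription, and not within 500 bp of the TSSs of 2 protein-coding genes on opposite strands. By the same rule, 1826 summits lay upstream of the nearest TSS at one-direction promoters, 1113 lay at divergent promoters and 4617 were farther away. The animals were white prepupae of Drosophila melanogaster of both sexes, taken whole, from 1 transgenic line in which lz carries a C-terminal GFP tag, and the tagged protein was precipitated with an antibody to GFP. The 3 biological replicates form a single group with no second condition, and no control sample was analysed here. A whole animal mixes the few cells known to express lz with many that do not, and no tag-free animal stands beside the data.

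The first stretch of a transcribed region holds the 5′ untranslated region (UTR), the first intron and, in many fly genes, core promoter elements that lie inside the transcript, such as the initiator at the start and the downstream promoter element a little past it. RNA polymerase II often pauses there before it elongates, and first introns of fly genes often carry enhancers. Runx proteins bind DNA through the Runt domain together with a CBF-beta partner, and lz is known for its part in crystal cell, eye and antennal development.

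The sequences under some of the strongest downstream summits follow. Each is given in the direction of transcription of the nearest gene, from dm6, with the 11 bases centred on the summit in capitals, and stretches that overlap a UTR are cut to 30 bases.
PNPase, chr3R:31404644-31404673: gaaacgtacaGGGCTTTTATTgtaagattt
lncRNA:CR46102, chr3R:25738144-25738244: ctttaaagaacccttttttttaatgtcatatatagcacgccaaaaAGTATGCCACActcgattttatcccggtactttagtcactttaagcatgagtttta
lncRNA:CR44149, chr2L:9568674-9568774: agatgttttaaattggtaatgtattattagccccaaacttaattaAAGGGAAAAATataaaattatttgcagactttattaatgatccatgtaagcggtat
CG31612, chr2L:21794912-21795012: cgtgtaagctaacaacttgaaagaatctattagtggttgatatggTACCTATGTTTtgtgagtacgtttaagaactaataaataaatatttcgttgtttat
lncRNA:CR44676, chr3L:19560763-19560863: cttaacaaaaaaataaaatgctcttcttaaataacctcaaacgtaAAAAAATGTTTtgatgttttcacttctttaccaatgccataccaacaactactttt
ph-p, chrX:2137962-2137991: gatatttgaaACATTAATAAActtaaaact
The 4 longer windows held 25.7% to 33.7% G and C, and none of the 10 strongest members had a Runx consensus within 50 bp of its summit.

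A second set of sequences shows the members of highest rank whose summit window held the Runx consensus, together with members at genes of known function. The consensus was searched on both strands as AACCACA or AACCGCA, or either with G as the first letter, and the capitals mark it, as its reverse complement where the site is on the other strand.
RpS4, chr3L:13041726-13041755: accctgcgcggtAACCGCAatccagtattt
lncRNA:Hsromega, chr3R:21296252-21296281: tttgtttattgtAACCACAtagctttagag
RpL27A, chr2L:4458317-4458346: tcacactgctacAACCGCAgccaacttcgc
Got2, chr2L:1986825-1986854: acattgtgcatgTGTGGTCcaacgacccgg
snRNA:U4:39B, chr2L:21215115-21215144: gtcctcctgaggTGCGGTTattgctagttg
Act5C, chrX:5902007-5902036: cctttcaaaccgTGCGGTCgcttagctcag
In RpS4 the site was centred before the TSS, at position -15, although the summit lay 12 bp past it, and RpS4 was the single one of the 21 members with a consensus whose nearest site was centred before the TSS.

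One replicate stood apart for these peaks. Among the 8048 strongest calls of each replicate, downstream summits numbered 620 in replicate 1, 376 in replicate 2 and 554 in replicate 3, a mean of 517 ± 126 (SD, n = 3), while upstream summits numbered 1940, 1687 and 1781. Replicate 2 thus had the fewest of both classes. Its downstream summits made up 18.2% of one-direction promoter summits, against 24.2% in replicate 1 and 23.7% in replicate 3. Values that differ with replicate 2 are given for each replicate below, and the part of that library in them was not tested. Read depth is unknown, since the lists hold no counts, and ranks by the authors' signal run from 1, the strongest, within each list. A named member's rank in a replicate is given for any of the 30000 calls within 100 bp of it, so it can exceed 8048.

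Downstream summits were far sparser than upstream ones for the DNA on offer. In the thresholded set 21.2% of one-direction promoter summits lay downstream (95% Wilson interval 19.6 to 22.9), and 22.1% ± 3.33 (SD, n = 3) did so in the replicates. The genome holds 8.98 Mb of bases that meet the downstream rule and 7.49 Mb that meet the upstream rule, which gives 54.8 downstream and 244 upstream summits per Mb. Across replicates the densities were 57.5 ± 14.1 and 241 ± 17.1 per Mb (SD, n = 3), downstream lower in 3 of 3 replicates, a difference of -183 ± 6.95. An exact two-sided sign-flip permutation test gave p = 0.25, the smallest that 3 pairs allow, so no comparison of this kind can reach 0.05. The large arms held 92 (3L) to 107 (3R) members, and the X held 98, or 66.6 per Mb of downstream bases against 50.8 to 56.3 on the autosomal arms. Chromosome 4 held 0 members of its 27 thresholded peaks.

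**Figure D1:**
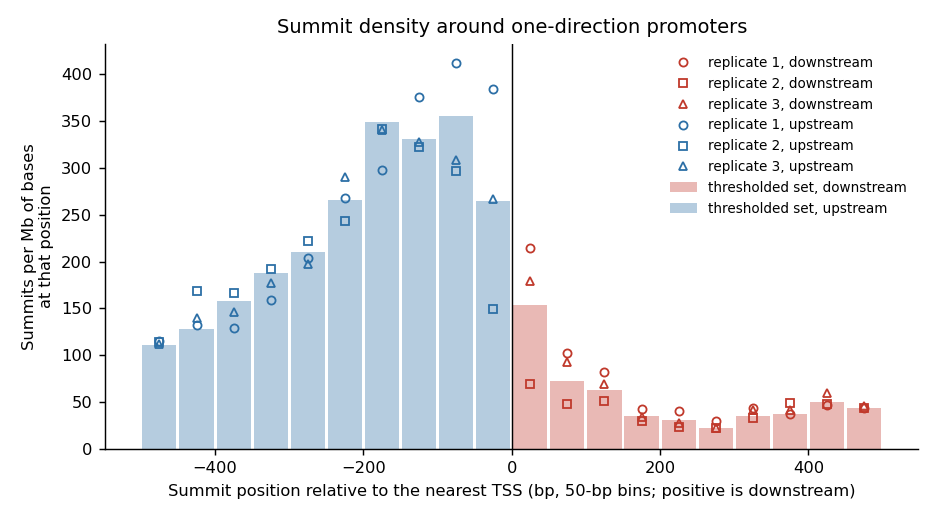
Summits per Mb of genome bases at each position (vertical axis) against the summit's distance from the nearest TSS in 50-bp bins (horizontal axis, positive downstream); bars are the thresholded set and open symbols the 3 replicates. Downstream density is highest in the first bin (154 per Mb), lowest at 250 to 299 bp (22.3) and 50.5 at 400 to 449 bp, and replicate 2 lies lowest near the TSS on both sides.

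Within the 500 bp, summit density was highest at the start site, lowest midway and higher again toward the far limit. The median distance was 129.5 bp, with 145 members (29.5%) within 50 bp and 169 (34.3%) more than 250 bp away. Density fell from 154 per Mb at 0 to 49 bp to 22.3 at 250 to 299 bp, and was 50.5 at 400 to 449 bp. At 250 to 299 bp the replicates had 30.1, 22.3 and 22.3 per Mb, and at 400 to 449 bp they had 47.2, 48.3 and 59.5, so the outer value was the higher in each. Between these bins the thresholded density went from 18.1 to 21.3 per Mb in exons and from 34.2 to 115 outside them. The rule stops at 500 bp, so the values do not show whether the outer summits form a group of their own. The first bin depended on the replicate, with 215, 68.9 and 179 per Mb in replicates 1, 2 and 3. The upstream class had no such outer rise, and its density fell from 356 per Mb at 50 to 99 bp to 111 at 450 to 500 bp.

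Summits lay close to both limits of the rule. The summit at CG7546 lay on the TSS itself at 0 bp with rank 7059, and that at snRNA:U1:95Ca lay 1 bp past it with rank 4527. Just outside were fax at -1 bp (rank 5491) and puc, a phosphatase gene of the JNK pathway, at -2 bp (rank 1912). At the far edge lncRNA:CR44078 at 495 bp (rank 2988) and lncRNA:CR43751 at 494 bp (rank 7585) were inside, and CG4615 at 502 bp (rank 1502) and dlg1 at 503 bp (rank 6837) were outside.

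Summits closest to the TSS were the least certain members. Of the 244 members matched within 100 bp in all 3 replicates, 224 (91.8%, Wilson interval 87.7 to 94.6) had the replicate summit downstream of the same TSS in all 3. For members 0 to 25 bp from the TSS this held for 14 of 33 (42.4%), for those at 26 to 50 bp for 19 of 20 and for all 29 at 51 to 100 bp. It also held for all 162 farther away, but the matching distance fixes that. A summit within 100 bp of such a member cannot lie before the TSS. These 162 are part of the 224, so the share of 91.8% says little about them. The median SD of a member's position over the replicates was 17.5 bp.

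The near and far members differed in what they covered. The 210 members at 0 to 100 bp lay mostly in 5′ UTR exons (170, or 81%), with 6 in introns. Of the 169 members at 251 to 500 bp, 95 (56.2%) were intronic and 25 were in a 5′ UTR. Near members had a median rank of 5545 and far members one of 3918. In the replicates the median rank percentile, where 100 is the weakest peak, was 65.2 ± 4.19 near and 49.3 ± 0.585 far (SD, n = 3), a difference of 16 ± 4.74 that was positive in 3 of 3 (exact two-sided sign-flip permutation test, p = 0.25). Mean G and C content in windows of 50 bp to each side of the summit was 41.3% ± 2.8 near and 35.9% ± 1.27 far, 5.5 ± 1.66 points apart and again positive in 3 of 3 (exact p = 0.25).

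Over all members, 258 summits (52.4%) lay in a 5′ UTR exon, 129 (26.2%) in an intron, 79 (16.1%) in an exon of a non-coding RNA and 10 (2.03%) in a coding exon. Another 16 (3.25%) lay past the end of a short transcript, and 0 lay in a 3′ UTR. Across replicates the 5′ UTR share was 52.5% ± 9.7 and the intron share 27.4% ± 5.11 (SD, n = 3). The 5′ UTR share was lowest in replicate 2, at 41.5%, against 59.8% and 56.1%. Among the members in coding exons were Got2, a mitochondrial aspartate aminotransferase gene, and Ptp99A, a receptor tyrosine phosphatase gene.

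**Figure D2:**
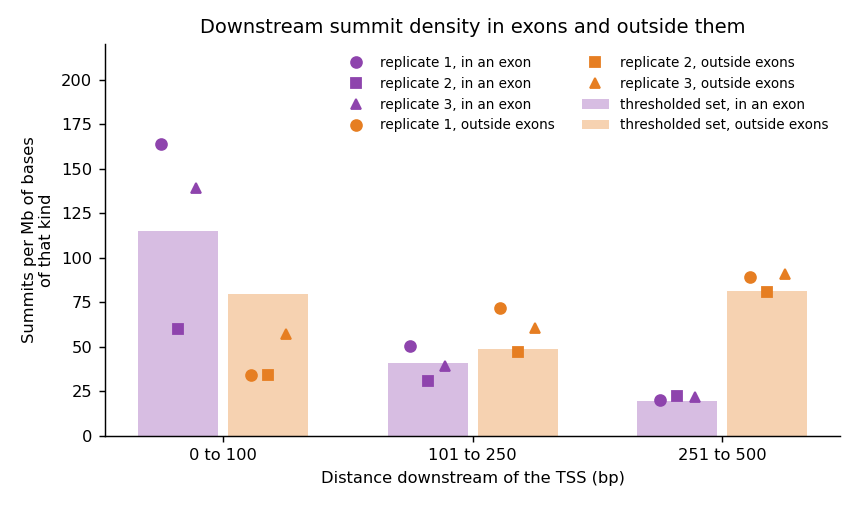
Downstream summits per Mb of exon bases and of bases outside exons (vertical axis) by distance from the TSS (horizontal axis); bars are the thresholded set and symbols the 3 replicates. Exon density falls from 115 to 19.7 per Mb with distance, while density outside exons is 81.5 per Mb at 251 to 500 bp, above the exon value there in every replicate.

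In the replicates, exons had the higher density near the TSS and the DNA outside them the higher one farther in. Exons make up 7.05 of the 8.98 Mb of downstream bases, so raw counts need this correction. At 0 to 100 bp the thresholded set had 115 summits per Mb in exons and 79.8 outside them, the latter from 7 members in 0.0878 Mb. The replicates had 121 ± 54.4 in exons and 41.8 ± 13.2 outside (SD, n = 3), where each replicate had 3 to 5 summits. In the bin of 50 to 99 bp the thresholded set had the higher density outside exons, 92.6 against 71 per Mb. At 251 to 500 bp, exons held 21.4 ± 0.969 per Mb and the DNA outside them 86.8 ± 5.33. Over the whole 500 bp the ratio of outside to exon density was 1.45, with 1.25, 2.02 and 1.43 in replicates 1, 2 and 3. The density difference was 25.2 ± 9.42 per Mb, positive in 3 of 3 (exact sign-flip permutation test, p = 0.25).

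Base composition moved with this position. Members in exons had 40.8% G and C on average and those outside exons 33.8%. The DNA on offer differed in the same direction, with 47.7% in downstream exon bases and 37.4% in downstream bases outside exons. Members were thus poorer in G and C than the territory of either kind. The measures differ, however, since a summit window can reach past the TSS or an exon's edge, while the territory counts only bases that meet the rule. Windows 130 bp downstream of 10821 TSSs with no pooled call within 1000 bp averaged 45%, and 46.5% in exons. Against upstream summits, downstream summits were richer in G and C in each replicate, 38.8% ± 2.25 against 35.6% ± 1.61, a difference of 3.15 ± 0.885 points (SD, n = 3; exact sign-flip permutation test, p = 0.25). Without replicate 2 it was 3.61 points. The DNA of the 2 sides differed the same way where no peak was called, with 45% downstream and 38.7% upstream in the windows at quiet TSSs.

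Downstream peaks were the weaker class. Their median rank percentile in the replicates was 57.5 ± 4.94 against 47.4 ± 2 for upstream peaks, a difference of 10.1 ± 3.15 that was positive in 3 of 3 (SD, n = 3; exact sign-flip permutation test, p = 0.25). In the thresholded set, downstream summits were 16.9% of one-direction promoter summits among ranks 1 to 2012 (Wilson interval 14.1 to 20.1) and 26.6% among ranks 6037 to 8048 (23.2 to 30.3). Among the pooled calls below the threshold, ranks 8049 to 30000, they were 40.8%. The share increased at each step in replicates 1 and 3, from 18.4% to 29.8% and from 17.2% to 29.6%. In replicate 2 it was 16.1%, 16.5%, 21.5% and 19.3% in the 4 groups from strong to weak.

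**Figure D3:**
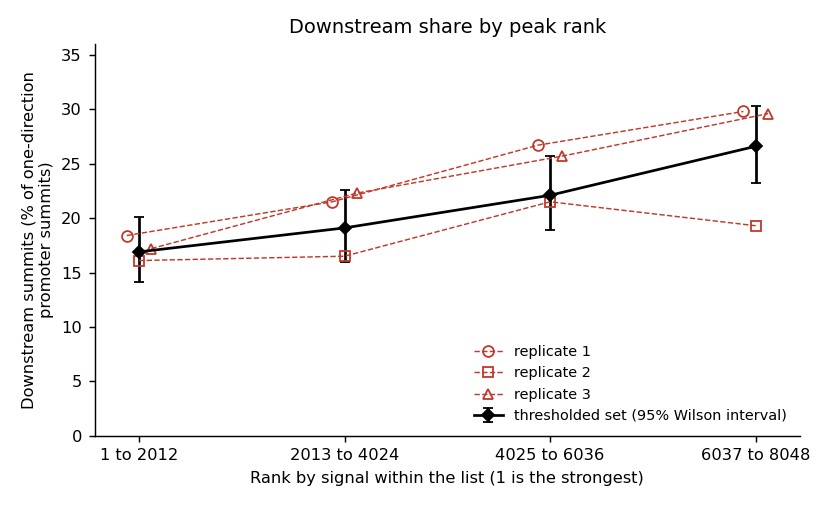
Downstream summits as a percent of one-direction promoter summits (vertical axis) in 4 equal groups of peaks by rank of signal (horizontal axis); diamonds are the thresholded set with 95% Wilson intervals and open symbols the replicates. The thresholded share goes from 16.9% in the strongest group to 26.6% in the weakest, and replicate 2 reaches 21.5% at most.

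The share of members found again was nearest to that of upstream peaks in replicate 1 and farthest below it in replicate 2. A replicate summit lay within 100 bp of 87.4%, 62.6% and 82.5% of the members in replicates 1, 2 and 3, against 87.8%, 76.8% and 85.9% of upstream peaks. All 3 replicates held 244 members (49.6%), 2 held 170, 1 held 72, and 6 were in none. For upstream peaks the share in all 3 was 63%. In replicate 2, recovery was 49% for members at 0 to 100 bp, 61.1% beyond 100 and up to 250 bp and 80.5% at 251 to 500 bp, while replicate 1 held 89%, 86.7% and 85.8%. Among ranks 1 to 2012, 96% of members were found in replicate 2, and among ranks 6037 to 8048 it was 29.7%. Rank moves with distance, as given above, and the part of each was not tested.

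**Figure D4:**
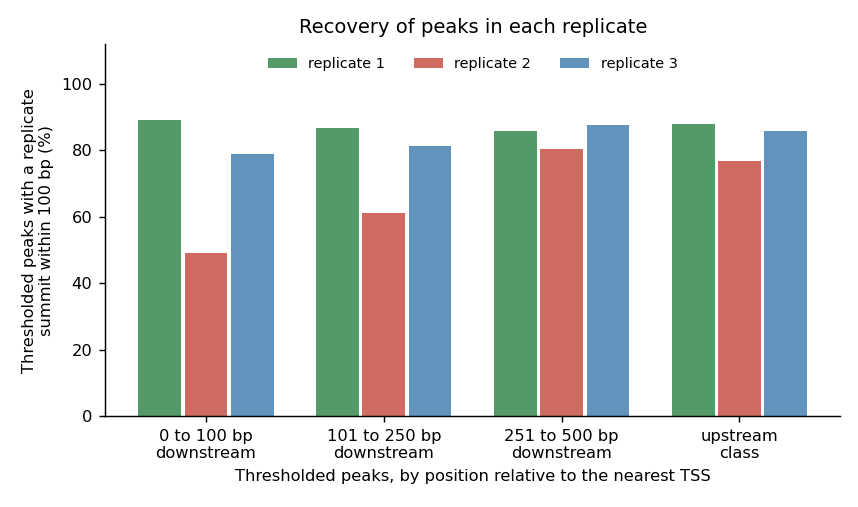
Percent of thresholded peaks with a replicate summit within 100 bp (vertical axis), for members in 3 distance ranges and for the upstream class (horizontal axis); each bar is 1 replicate. Replicate 2 recovers 49% of members within 100 bp of the TSS and 80.5% of those beyond 250 bp.

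The width of the calls bears on whether a peak reaches its TSS. Of the 492 intervals, 284 (57.7%) covered the TSS, but 322 (65.4%) had a width of exactly 430 bp, and all 322 of these had the summit within 1 bp of the middle. Such an interval covers the TSS whenever the summit lies under 215 bp from it. The members of this width had a median rank of 5930 and the others one of 1563, and 67.4% and 39.4% of their intervals covered the TSS.

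Many members lay at a start site that is not alone. The TSS was the first of its gene for 320 members (65%). A further TSS of the same gene lay within 500 bp ahead of 84 summits (17.1%), which were therefore also upstream of that TSS. These had a median rank of 3224, against 4900 for the rest. A TSS of another gene on the opposite strand lay ahead of 26, and a TSS of another gene on the same strand ahead of 6. This leaves 383 (77.8%) that were upstream of no TSS, with a median rank of 4917. The gene also had an upstream peak, divergent promoters included, at 110 members (22.4%), and 164 (33.3%) had another thresholded peak within 1000 bp.

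The nearest gene was protein-coding for 382 members and a long non-coding RNA (lncRNA) or antisense RNA gene for 95. The remainder were 6 at small nuclear RNA genes, 5 at entries of mature microRNAs, 2 at pseudogenes, 1 at a tRNA gene and 1 at a small nucleolar RNA gene. The annotated starts of microRNAs, tRNAs and small nucleolar RNAs are ends of processed molecules rather than start sites, so a distance from them says little about a promoter. The members at lncRNA genes lay farther in, with a median of 241 bp against 118 bp, and were poorer in G and C, 33.7% against 40.2%. Their number was steady, 89, 93 and 89 in the replicates, against 517, 274 and 447 at protein-coding genes. In replicate 2, 83.2% of the lncRNA members and 58.1% of the coding members were found again.

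In all, 467 genes had a downstream peak. Of 13968 protein-coding genes 360 did, or 2.58%, and 10.4% had an upstream one by the same rule, at one-direction promoters. With divergent promoters counted, which the downstream rule leaves out, 16.8% had an upstream peak, and 103 genes had one of these and a downstream peak. Of 3828 non-coding genes and pseudogenes, 2.66% had a downstream and 4.1% an upstream peak, or 4.13% with divergent promoters. Upstream counts for the lists below are those at one-direction promoters. The protein-coding count was 489, 256 and 422 in the replicates, and 153 genes were shared by the thresholded set and all 3. The gene counts that follow are read against these shares and were not tested.

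Among the strongest members, the highest was at PNPase (FBgn0039846), which encodes the polynucleotide phosphorylase that trims mitochondrial RNA. Its summit lay 82 bp past the TSS in the 5′ UTR (chr3R:31404430-31404878), with pooled rank 4 and ranks 4, 4 and 8 in replicates 1, 2 and 3. A further PNPase TSS lay ahead of this summit, so it was both downstream of one start and upstream of another. GstE13, a glutathione S-transferase gene, followed at rank 37 (replicates 34, 40 and 42), 72 bp past its TSS, and also had a further TSS ahead. The peak at asRNA:CR45928 had rank 42 (44, 35 and 47) and a TSS of another gene on the opposite strand ahead of it.

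Of the other 7 strongest, lncRNA:CR46102 had rank 70 (86, 61 and 65), 167 bp into its exon, and lncRNA:CR44149 rank 97 (97, 111 and 96) at 61 bp. Ahead of the lncRNA:CR44149 summit lay a TSS of another gene on the opposite strand. CG31612 was the single intronic one, 485 bp past its TSS, with rank 128 (119, 119 and 154). The summit at lncRNA:CR44676 (rank 135) lay past the end of that transcript. CG12316 (rank 175), ph-p (rank 178) and CG9399 (rank 180) completed the set. The summits at CG12316 and CG9399 had a further TSS of the same gene ahead, so they were also upstream of that TSS. ph-p encodes the Polyhomeotic subunit of the Polycomb repressive complex PRC1, its summit lay 395 bp into the 5′ UTR, and its replicate ranks were 159, 186 and 121. All 10 were found in every replicate, and the replicate summits stayed downstream of the TSS in each, which the matching distance fixes for those more than 100 bp in.

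**Figure D5:**
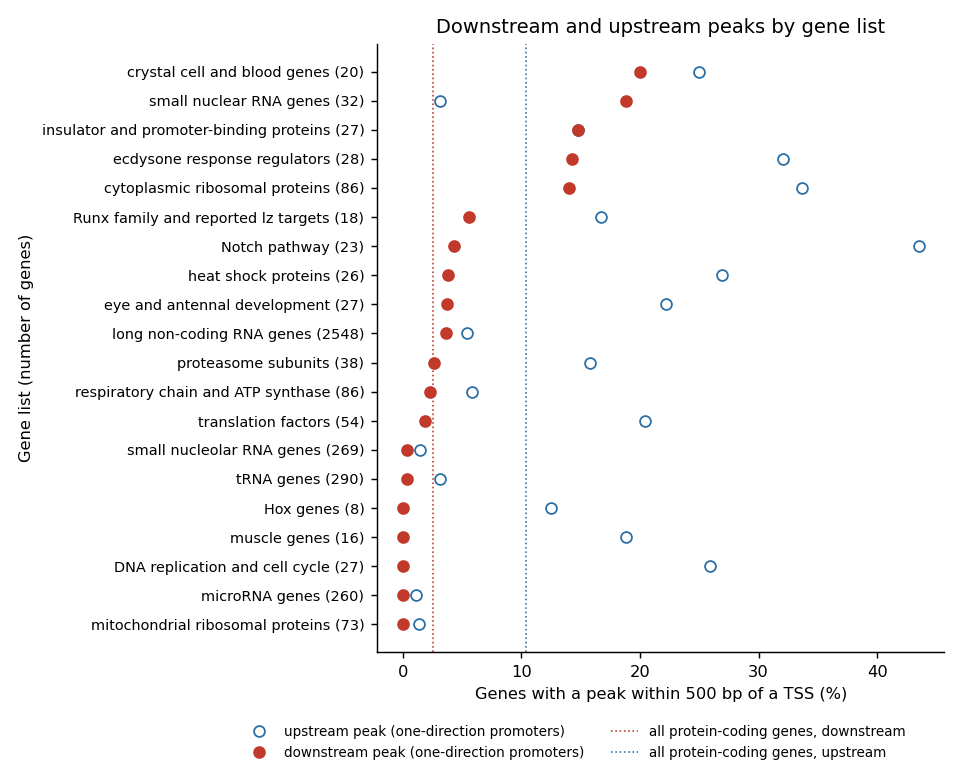
Percent of each list's genes (horizontal axis) with a downstream peak (filled) and an upstream peak (open), both at one-direction promoters and covering each other at 14.8% for insulator and promoter-binding proteins; dotted lines give the same over all protein-coding genes, 2.58% and 10.4%. Small nuclear RNA genes are the single list plotted with a higher downstream than upstream share, 18.8% against 3.12%, but 6 genes fall to 1 when replicate 1 or 3 is left out.

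Genes of cytoplasmic ribosomal proteins, which build the ribosome of the cytosol, had a downstream peak at 12 of 86 (14%) and an upstream one at 29 (33.7%), or 56 (65.1%) with divergent promoters. Each is above the share of all protein-coding genes. The replicates held 19, 6 and 14. With a limit of 1000 bp, which also makes more promoters divergent, the downstream count was 6. These summits hugged the nearest start: 9 of the 12 lay within 25 bp, with a median of 12.5 bp. At RpS4, RpL26, RpL30 and RpS23 a further TSS of the same gene lay ahead of the summit, as it did for 17.1% of all members. RpS4 had the highest, rank 862, with 560, 1173 and 963 in the replicates, and replicate positions of 5, -45 and 17 bp. At RpL26 the ranks were 1187, 1288 and 1976, and the positions 117, 100 and 84 bp, downstream each time. RpL30 was at 7, 0 and 14 bp (ranks 927, 3071 and 1799), and RpS23 at 32, 33 and -11 bp (ranks 1560, 3609 and 2293). Only 4 of the 86 genes had a downstream peak in all 3 replicates and in the thresholded set. By comparison 0 of 73 mitochondrial ribosomal protein genes had a downstream peak and 1 (1.37%) an upstream one. With divergent promoters counted, 14 (19.2%) had an upstream peak, against 16.8% of all protein-coding genes.

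Other lists of housekeeping machinery had shares near the 2.58% of all protein-coding genes. Translation factors had 1 of 54 (1.85%; eIF4E1, the cap-binding protein), proteasome subunits 1 of 38 (2.63%; Rpn10, a ubiquitin receptor), and the respiratory chain and ATP synthase 2 of 86 (2.33%; ND-B22 of complex I and UQCR-14 of complex III). Heat shock proteins had 1 of 26 (3.85%; Hsp110), and replication and cell cycle genes 0 of 27. These 5 peaks had ranks from 5195 at ND-B22 to 7287 at UQCR-14, and lay within 50 bp of the TSS. ND-B22 was matched in all 3 replicates. eIF4E1 was matched only in replicate 1, where the summit lay upstream at -10 bp, and Rpn10 and Hsp110 had no match in replicate 2. The replicate 1 summits at Hsp110 and UQCR-14 also lay upstream, at -19 and -14 bp. Except at UQCR-14, a further TSS of the same gene lay ahead of each of the 5 summits.

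Small nuclear RNA genes, whose products splice pre-mRNA or, for 7SK, hold back the elongation factor P-TEFb, had a downstream peak at 6 of 32 (18.8%) and an upstream one at 1. The replicates held 5, 2 and 5, and 1 gene was shared by all of them and the thresholded set. The count was 1 without replicate 1, 4 without replicate 2, 1 without replicate 3 and 1 among the 4024 strongest peaks. The peak at snRNA:U5:63BC lay 78 bp in (rank 3592; 2438 and 4096 in replicates 1 and 3, none in replicate 2), and that at snRNA:U4:39B 29 bp in (rank 4158; 3374, 10677 and 3176). At snRNA:U1:95Ca it lay 1 bp in (rank 4527; 3384, 6034 and 5706), and at snRNA:7SKa 145 bp in (rank 5305; 4186, 9190 and 3975). At these 4, the highest of the list, replicate 2 had the weakest rank or no match. Several of these genes have near-identical copies, so reads may have been split between copies. How the authors treated such reads is not given in the sources used here.

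Long non-coding RNA genes had 92 of 2548 with a downstream peak (3.61%), against 2.66% of all non-coding genes, and 137 (5.38%) with an upstream one. The replicates held 88, 89 and 87, and 53 genes were shared by all lists. A strong example with known function is lncRNA:Hsromega, a stress-induced nuclear RNA, with rank 1559 (1625, 1969 and 1288), 174 bp in. tRNA genes had 1 of 290, small nucleolar RNA genes 1 of 269, and microRNA hairpin genes 0 of 260.

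Ecdysone response regulators, which carry the hormone pulse that starts metamorphosis, had a downstream peak at 4 of 28 genes (14.3%) and an upstream one at 9 (32.1%). All 4 encode nuclear receptors. Eip75B, a heme-binding receptor, had 3 downstream peaks, each at a different TSS. The strongest was 29 bp in, with rank 361 (342, 449 and 352), and its replicate summits were at 24, 39 and 29 bp. The others had ranks of 6557 and 7810. The peaks at Hr78 (rank 5432), Hr39 (rank 5794) and Eip78C (rank 6021) were weak, and Hr39 and Eip78C had no match in replicate 2. At Hr78 the replicate 2 summit lay upstream at -18 bp, and a further TSS of the gene lay ahead of the pooled summit. The replicates held 6, 1 and 3 genes of the list, the count was 2 without replicate 1 or 3, and 1 gene, Eip75B, had a downstream peak in all 3 and in the thresholded set.

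Among insulator and promoter-binding proteins 4 of 27 had a downstream peak (14.8%), as many as had an upstream one, with 4, 3 and 5 in the replicates. The count was 1 without replicate 1, 3 without replicate 2 and 2 without replicate 3, and 1 gene was shared by all lists. Trl, which encodes the GAGA factor, had the highest, 132 bp in, with rank 622 (537, 808 and 656) and positions of 142, 133 and 142 bp. CTCF, an insulator gene, had rank 3373 and no match in replicate 2, and pita, a zinc finger architectural protein gene, had rank 4577. The peak at lola, a BTB transcription factor gene, was 4 bp in with rank 7436, and its replicate 1 summit lay at -60 bp.

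Downstream peaks at Runx family genes and reported lz targets, and at crystal cell and blood genes, were weak and were not found in replicate 2. Of 18 genes of the Runx family and reported lz targets, klu, a zinc finger repressor gene, was the single one (5.56%), with rank 6103, 45 bp in, and 3 had an upstream peak. Of 20 crystal cell and blood genes, 4 had one (20%), against 2.58% of all protein-coding genes, and 5 had an upstream one. The 4 were the engulfment receptor gene drpr (rank 5550), the hypoxia factor gene sima (5808), the Hippo pathway factor gene sd (7066) and the GATA cofactor gene ush (7418). None of these 5 peaks was matched in replicate 2, so both counts were 0 without replicate 1 or 3, and at ush both matched summits lay upstream, at -18 and -22 bp. Both counts were 0 among the 4024 strongest peaks. With 1 TSS per gene the counts were 2 for the crystal cell and blood, ecdysone and insulator lists. In the eye and antennal list, aop, an Ets repressor gene, had the single downstream peak of 27 genes (rank 7980). It was matched in replicates 1, 2 and 3 at ranks 8111, 6764 and 6617. Of 23 Notch pathway genes, mam, the Notch coactivator, was the single one, with 2 peaks of rank 2879 and 3062 in all 3 replicates, against 10 with an upstream peak. Hox genes (0 of 8), muscle genes (0 of 16), cuticle protein genes (0 of 96) and odorant and gustatory receptor genes (0 of 120) had none in the thresholded set; muscle genes had 1 in replicate 1.

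The Runx consensus was rare at these summits. It was in 21 of the 492 summit windows (4.27%, Wilson interval 2.81 to 6.44) and in 2.46% of upstream windows. Windows at TSSs without a call had it in 5.05% downstream and 3.84% upstream, so the 2 sides differed the same way there. Those windows were centred 130 bp downstream or 168 bp upstream of the TSS, with 50 bp to each side, and so do not reach the start site. The replicates had 3.39%, 2.93% and 4.87% downstream against 2.84%, 2.25% and 2.7% upstream, higher in 3 of 3 and by 1.13 points on average (exact sign-flip permutation test, adjusted p = 0.571 over 16 motifs). The windows with it had a median rank of 6279, and 2 were intronic. At CG1172 the match shared bases with the sequence bound by M1BP.

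Promoter sequences differed between the 2 sides of the TSS. The DNA replication-related element TATCGATA, bound by DREF, was in 6 members (1.22%) and 2.68% of upstream windows. Windows without a call also had less of it downstream, 0.12% against 0.545% upstream. The replicates had 1.45%, 1.06% and 0.903% downstream and 4.07%, 2.85% and 2.64% upstream. The TATA box TATAAA, on the gene's strand, was in 7.32% of members and 12.7% of upstream windows, but windows without a call differed likewise, with 5.46% downstream and 9.21% upstream. The BEAF-32 insulator site CGATAT was in 4.88% and 7.5%, against 3.96% and 4.25% without a call. CGATAT can overlap TATCGATA, and at 2 members, Nup58 and Wdr62, it did. For these 3, the downstream share was the lower in 3 of 3 replicates and the replicate ranges did not overlap (exact sign-flip permutation test, adjusted p = 0.571 for each, and 0.571 is the lowest over the 16 motifs).

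The M1BP sequence GGTCACACT was in 6 members (1.22%) and 1.15% of upstream windows. Windows without a call had it in 0.102% downstream and 0.185% upstream. Because those windows do not reach the start site, the contrast with them, for this sequence and for TATCGATA, is also one of position. The members with these elements sat close to the start, as the matches show, with the element in capitals.
RpS15Aa with TATCGATA, chrX:13337695-13337724: gtccggctaacTATCGATAggcacgttgag
RpL36A with TATCGATA, chr2L:8042884-8042913: aaacgaaaaccTATCGATAgcgcatggctt
RpL27A with GGTCACACT, chr2L:4458330-4458359: cgccgccgggcGGTCACACTgctacaaccg
drpr with GGTCACACT, chr3L:1731082-1731111: actcgcaaagcGGTCACACTggcgagtgca
The summits lay 11, 7, 5 and 39 bp past the TSS, and none of the 6 windows of either element was intronic.

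The letters of elements known from the start of transcripts had higher shares downstream in the thresholded set. A match counted anywhere within 50 bp of the summit, so it need not lie at the start. Of the 92 members with the polypyrimidine initiator 26 were intronic, and of the 34 with the initiator 7 were. The polypyrimidine initiator (CTTT with a C or T on each side), found at ribosomal protein genes, was in 92 members (18.7%) and 14.8% of upstream windows. Windows without a call had it in 11% downstream and 14.9% upstream. At summits it was higher downstream in 3 of 3 replicates, although in replicate 3 both sides round to 16.1%. The initiator (TCAGTC or TCAGTT) was in 6.91% and 5.81%, higher in 3 of 3, with overlapping ranges. The downstream promoter element (AGACGTG or AGTCGTG, or either with G as the first letter) was in 11 members (2.24%) and 0.657% of upstream windows. Windows without a call had it in 1.28% downstream and 0.813% upstream. In replicate 2 it was in 0.532% of downstream summit windows against 0.593% of upstream ones. Of the 16 motifs, 3 were higher and 4 lower downstream in all 3 replicates. The GATA site (AGATAA or TGATAA) was the fourth lower one, at 14.2% and 15.8%, against 10.2% downstream and 14.8% upstream in windows without a call, and 33 of its 70 members were intronic.

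The other 7 motifs had no common direction. GAGAG was in 11.6% of members and 10.4% of upstream windows, CAGCTG in 4.27% and 4%, CACGTG in 1.42% and 0.767%, the homeodomain site TAATTA in 7.11% and 8.11%, the Zelda site CAGGTAG in 0.407% and 0.329%, and the A tract AAAAAAA in 14.2% and 12.3%. The Grainyhead site AACCGGTT was in 0 of either. Apart from the TATA box and the initiator and downstream elements, which were read on the gene's strand, motifs were searched on both strands. A match is a description of the letters and does not show that a factor bound there.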

How the data were processed

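ChIP-seq peak lists of 3 replicates were read on dm6 with Ensembl gene models; chromosome names and lengths match. The authors deposited 30000 calls per replicate and for the pooled replicates, and a thresholded set equal to the 8048 pooled calls of highest signal. The signal column holds the authors' value per peak, and served here for ranks inside 1 list. The sources used here name no aligner or peak caller. Each replicate was cut to its 8048 highest calls. Ties in distance went to a TSS the summit is downstream of, then by gene identifier. The 2 members that share an interval were kept apart.

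A TSS was the start of any transcript (24111 positions), without annotated transposable element insertions. The written plan named transcripts of any biotype, and with the insertions there were 525 members. Bases meeting each rule were counted over the genome. Classes were compared within replicates by the exact two-sided sign-flip permutation test, with Benjamini-Hochberg adjustment over 16 motifs. Wilson intervals cover counting error only, and peaks and genes are not independent replicates. List symbols were matched by name or by an unambiguous synonym; 4 symbols found no match and are not analysed here.

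Genes named are those of the 10 strongest members, up to 4 per list by rank, the 2 on each side of each limit and the 4 highest members with the Runx consensus; others (the sequences of Act5C, ph-p and snRNA:U4:39B, the genes with promoter elements, and Ptp99A) were chosen after their values were seen. Members and lists were chosen with earlier results of these data known. Sequences are from the RefSeq dm6 genome. Scripts were tested on simulated data. Scripts ran under Python 3.11.15 with pandas 2.3.3, on numpy 2.4.6, scipy 1.17.1 for the statistics, and matplotlib 3.10.9 for plots. Alternatives covered the TSS definition, the limit, the matching distance, the motif window, the 4024 strongest peaks and leaving out each replicate; 2 were added after seeing the data, the insertions as gene models and the mature microRNA entries left out.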

Additional observations from a re-analysis of the deposited data

How the results depend on the processing

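Over the alternatives, 273 of 355 values stayed within the spread between replicates or, for counts, within 1.5 times, 82 moved, and none reversed. The limit set much of the annotation. At 250 bp the intron share was 9.97% and 87.4% of intervals covered the TSS. At 1000 bp there were 845 peaks, 29.8% of one-direction promoter summits, with 47.6% in an intron, 28.8% covering the TSS and 580 protein-coding genes. The 4024 strongest peaks had 205 members, 32.2% in an intron, 42.9% covering the TSS and 145 protein-coding genes. Keeping members matched in both remaining replicates left 267 to 365 members, a downstream share of 17.7% to 20.6%, an intron share of 26.8% to 31.5%, a covering share of 44.2% to 55.1%, and 183 to 271 protein-coding genes. Except for the intron share, the low ends came without replicate 1 or 3, where replicate 2 must hold the peak. The intron share was 31.1%, 26.8% and 31.5% without replicates 1, 2 and 3. Of the members matched in all 3 replicates, 94.4% were downstream in each at a matching distance of 50 bp and 89.7% at 200 bp. Members farther from the TSS than the matching distance are downstream in each by the rule. With all calls of each replicate, 71.1% of members were found in all 3. Annotated microRNA products decide the microRNA count, which was 4 of 260 hairpin genes without those entries. No paired analysis was possible because there is 1 group, so no second group shares the replicate numbers; the 2 sides of the TSS were compared within each replicate. With no depth known, an absent peak sets no limit on binding.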

Other observations

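Several downstream peaks stood at 1 gene in 23 of the 467 genes. Eip75B and CG18622 had 3 each, and the other 21 genes had 2. The genes named in this paragraph were chosen from these 23 after their values were seen. The gap junction gene ogre had an intronic summit of rank 369 (276, 446 and 459 in replicates 1, 2 and 3) and a weaker one in a 5′ UTR of rank 3970. At cnc, the fly Nrf2 homologue, an intronic summit had rank 912 (898, 990 and 902), and a second summit of rank 7267 had no match in replicate 2. The zinc finger gene woc had summits of rank 1445 and 3906, both in a 5′ UTR, with replicate positions of 326, 298 and 299 bp for the first and of 100, 98 and 98 bp for the second. At shn, a zinc finger gene of the Dpp pathway, the ranks were 4382 and 5701, and the first had no match in replicate 2 and lay at -1 bp in replicate 1.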
